A study of Mus musculus with 4 samples.

Results

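The genes of the voltage-gated sodium channels, the potassium channels and the ClC chloride channels and transporters set how a muscle fibre membrane fires and recovers. They were taken from the count table by symbol, as every gene whose name starts with Scn and a digit, Kcn and a letter, or Clcn and a digit. This gave 33 of the 13825 genes, of which 31 were tested, having 10 or more counts on average across the 4 libraries. The other 2, Kcnip3 and Kcnk13, are given by their counts.

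Tibialis anterior (TA) muscle was taken from adult male WT mice and from adult male mice lacking Fgf21 in the whole body (Fgf21KO), 14 days after a piece of the sciatic nerve was removed on the left side. The 4 groups were sham and denervated muscle of WT mice (WS and WD) and of Fgf21KO mice (KS and KD), and each was 1 library made from 4 pooled muscles. Values listed without names follow the order WS, KS, WD and KD. The labels describe the control muscle as the innervated right leg, while the study's methods describe the same operation without nerve transection on the contralateral side, so the sham and denervated pools of a genotype probably came from the same mice. Total counts over the 13825 genes were 25249879 in WS and 34141303 in KS, against 29150147 in WD and 27740920 in KD, and a level of 3 counts was 0.129, 0.101, 0.0919 and 0.0970 CPM (the share of a gene in the library total after TMM scaling, which is used below for levels of 1 gene across libraries). Every gene of the table had at least 1 count in each library.

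A muscle action potential rises when voltage-gated sodium channels open, and it ends as potassium channels open and the chloride conductance pulls the membrane back to rest. Inward rectifier and two-pore-domain potassium channels set the resting potential, small-conductance calcium-activated potassium channels shape the afterhyperpolarization, and the intracellular ClC proteins exchange chloride for protons in endosomes and lysosomes. After loss of its nerve a fibre is known for a less negative resting potential and spontaneous firing. Several genes that textbooks place first in this tissue, Scn4a, Clcn1, Kcnn3, Kcnj11, Kcnq5 and Kcnc4, were not analysed here, and neither was Fgf21, which leaves the genotype labels without a check.

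The surgery labels were checked against denervation markers. The list was made with earlier results of these data known, so the check is not an independent one. Of 14 listed genes 6 were in the table, and each of them was called higher in denervated muscle (6.84% of all tested genes were). Runx1, a transcription factor induced by loss of the nerve, was at 1.89 CPM in WS and 1.78 in KS, against 166 in WD and 176 in KD. Chrnb1, the beta subunit of the muscle acetylcholine receptor, was at 38.1 CPM in WS and 36.6 in KS, against 213 in WD and 230 in KD. Ncam1, Gadd45a, Hdac4 and Fbxo32 were also called higher, with log2 fold changes of 3.55, 4.68, 2.78 and 1.21. Both denervated libraries thus stood above both sham libraries for all 6 markers. Of 9 muscle fibre markers Myh1, at 24303 CPM in WS, and Des were in the table. Des was at 3782 CPM in WS and 3851 in KS, against 5859 in WD and 5288 in KD. Both together summed to 28084.5 CPM in WS and 25453.5 in KS, against 21510.7 in WD and 22820.4 in KD. By adjusted p alone 1 of the 2 was higher (26.6% of all tested genes were) and 1 lower (27.0%). With total counts alone 1 was higher (46.7%) and 0 lower (12.8%). None of the 8 neuronal markers listed was among the genes analysed here.

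The effect of denervation came from a quasi-likelihood fit in edgeR with terms for surgery and genotype (the additive model), in which both genotypes stand as the replicates of a surgery and 1 residual degree of freedom per gene is left. A gene was called at an adjusted p below 0.05 (Benjamini-Hochberg over all 13084 tested genes) and a change of at least 2-fold. Of the 31 tested channel genes 10 (32.3%) were called, against 13.1% of all tested genes. The 3 called higher (9.68%, against 6.84% of all tested genes) were Kcnk5, Scn3a and Clcn5. The 7 called lower (22.6%, against 6.24%) were Scn4b, Kcnn2, Kcnab1, Kcnj15, Kcnn4, Kcnj8 and Kcna2. By adjusted p alone 6 were higher (26.6% of all tested genes were) and 14 lower (27.0%). The median log2 fold change was -0.51 over the channel genes and 0.01 over all tested genes, with 8 channel genes above 0 and 23 below, and the median absolute change was 0.79 against 0.38. Scaling by total counts alone, which raised the median of all genes by 0.28 (WD over WS) and 0.35 (KD over KS), gave 5 called higher and 4 lower (13.0% and 2.48% of all tested genes on that scaling), a median of -0.20, and 11 genes above 0 against 20 below. The number called lower was also 4 with DESeq2's Wald test (5.39% of all tested genes). Whether denervation acted differently in the 2 genotypes was not testable, since that difference is the residual of the model. In these whole-muscle samples fewer cells of a type and less RNA per cell cannot be told apart.

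**Figure D1:**
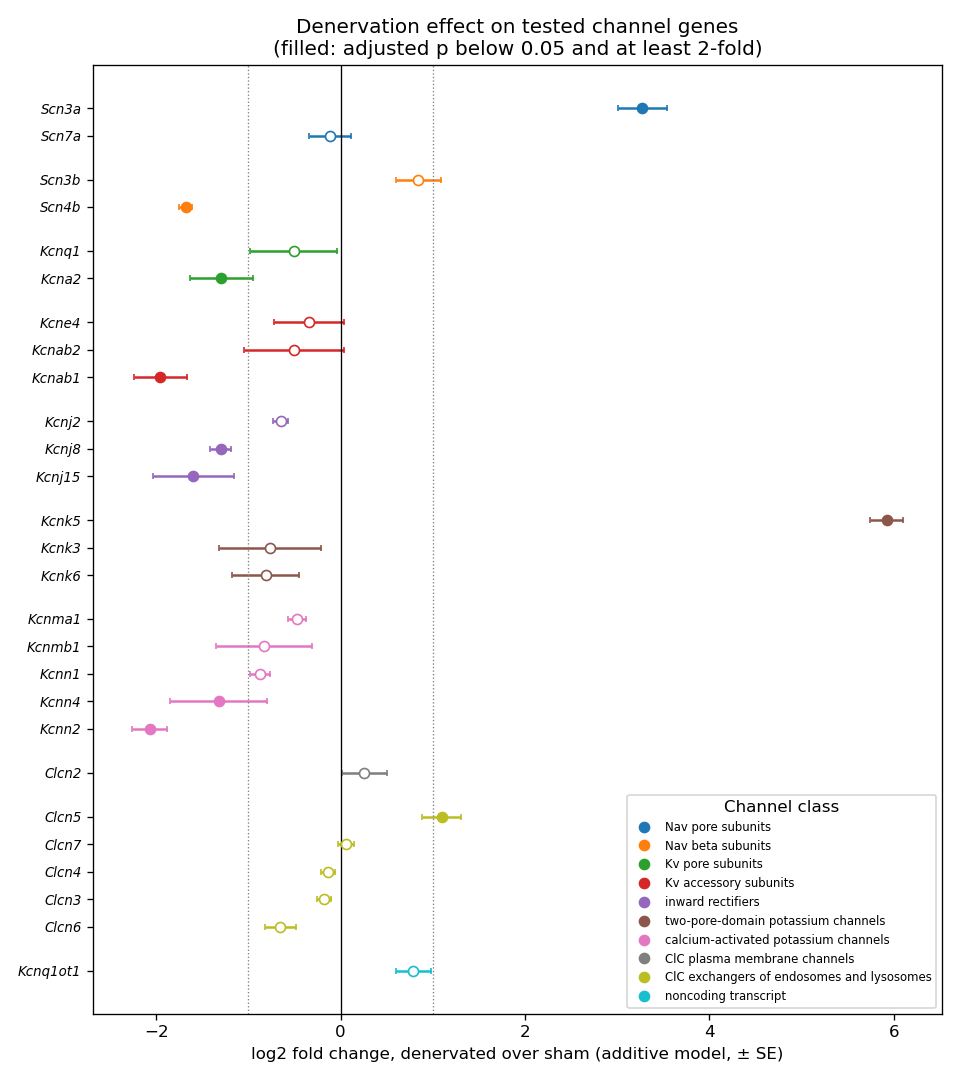
Log2 fold change of denervated over sham (x axis, additive model, bars ± SE) for 27 of the 31 tested channel genes (y axis), grouped and coloured by channel class, with filled points for the 10 genes called and dotted lines at a 2-fold change. Kcnk5 (5.92) and Scn3a (3.27) stand far to the right, and most points lie left of 0, of which Scn7a, Clcn3 and Clcn4 move to the right of 0 when libraries are scaled by total counts alone.

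Levels were compared between genes within a library on a scale of counts per kilobase of the longest annotated transcript, set to a common total. On that scale Scn4b, a sodium channel beta subunit, was at 619 in WS and 615 in KS, against 207 in WD and 223 in KD. Clcn4, an intracellular ClC exchanger, ranked the third of the 33 genes in every library and below Scn4b, with a per-length level of 64.9 in WS and 61.0 in KS, against 64.2 in WD and 63.8 in KD. Among the sham libraries Kcnk5 stood near the other end, and it ranked 27 of 33 in WS and 23 in KS, but 6 in WD and 4 in KD. With the median in place of the longest transcript length, 8 of the 10 genes highest by the mean of the 4 libraries were the same.

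Of the sodium channel pore subunits, Scn3a and Scn7a were measured. Scn3a, which encodes the tetrodotoxin-sensitive channel Nav1.3 of embryonic neurons, had 19 counts in WS and 22 in KS, against 200 in WD and 276 in KD, or 0.818, 0.741, 6.13 and 8.92 CPM. It was near 1 CPM in both sham libraries and several times higher in both denervated ones. The fold of WD over WS was 7.49 (95% counting interval 4.67 to 12.7) and that of KD over KS was 12 (7.80 to 19.5). In the additive model the log2 fold change was 3.27 ± 0.26 (SE, edgeR adjusted p = 1.48e-11), higher in both denervated libraries. Scn7a, which encodes Nax, a sodium-sensing channel of glia and other non-excitable cells, was at 3.74 CPM in WS and 3.97 in KS, against 3.68 in WD and 3.46 in KD. Its values lay close together and it was not called (log2 fold change -0.11 ± 0.22), and with total counts alone the estimate was 0.21. The per-length level of Scn3a was 0.168 of that of Scn7a in WS and 0.143 in KS, and 1.28 of it in WD and 1.98 in KD. Scn3a lies at chr2:65457118-65567627 on the minus strand (GRCm38 annotation).

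The sodium channel beta subunits are small membrane proteins that set the gating and surface level of the pore subunit. Scn4b, whose protein is disulfide-linked to the pore and is known for resurgent current, was at 966 CPM in WS and 993 in KS, against 295 in WD and 315 in KD. Both sham libraries stood far above both denervated ones, with no overlap. Sham exceeded denervated by 3.27-fold in WT (3.19 to 3.35) and by 3.15-fold in Fgf21KO (3.08 to 3.22), and the log2 fold change was -1.68 ± 0.07 (edgeR adjusted p = 1.35e-17). Scn3b, another beta subunit, was at 2.32 CPM in WS and 2.15 in KS, against 3.68 in WD and 4.36 in KD. It moved the other way, higher by adjusted p alone (log2 fold change 0.84 ± 0.25, edgeR adjusted p = 0.00464), and did not pass with DESeq2's Wald test (adjusted p = 0.1) or, in a model of surgery alone, without KD (edgeR adjusted p = 0.0993). With total counts alone it was called (log2 fold change 1.17, edgeR adjusted p = 0.0018). Scn4b lies at chr9:45138395-45154152 on the plus strand (GRCm38 annotation).

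Of the voltage-gated potassium channel pore subunits 5 were tested, and 1 was called, lower (6.24% of all tested genes were). Kcna2, the Kv1.2 subunit known from the juxtaparanodes of myelinated axons, had 73 counts in WS and 57 in KS, against 27 in WD and 37 in KD, or 3.14, 1.92, 0.827 and 1.20 CPM. Both denervated libraries were below both sham libraries, and the gap was wider in WT (3.80-fold, 2.41 to 6.15) than in Fgf21KO (1.60-fold, 1.04 to 2.50), a difference that was not testable. The log2 fold change was -1.29 ± 0.34 (edgeR adjusted p = 0.00227). The call was lost with DESeq2's Wald test (adjusted p = 0.0563), with total counts alone (log2 fold change -0.97), and in a model of surgery alone without WS (log2 fold change -0.93, edgeR adjusted p = 0.0898). Schwann cell markers are given beside it, since axons and their sheath also lie in the muscle. Of 9 listed 5 were in the table, with a summed level of 63.7 CPM in WS and 66.6 in KS, against 34.3 in WD and 37.8 in KD. Most of that fall lay in Pmp22, which was called lower (log2 fold change -2.25). Without Pmp22 the sum was 32.3 CPM in WS and 32.0 in KS, against 27.3 in WD and 31.0 in KD. Of the others Mbp was lower by adjusted p alone (-0.51), Erbb3 was higher by adjusted p alone (0.40), and 2 had no call. With DESeq2's Wald test 0 of the 5 passed as higher (16.9% of all tested genes did), and in a model of surgery alone also 0 (24.3%). With total counts alone Pmp22 was the only 1 of them that passed as lower (12.8%). The part of Schwann cells in the fall of Kcna2 was not tested.

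Kcnq1, the pore of the slow delayed rectifier of heart, had 19 counts in WS and 14 in KS, against 19 in WD and 10 in KD, with no call. The noncoding transcript Kcnq1ot1, which lies inside Kcnq1 on the other strand (chr7:143203458-143296549, minus strand, GRCm38 annotation), had 93 counts in WS and 131 in KS, against 262 in WD and 204 in KD. It was higher by adjusted p alone (log2 fold change 0.79 ± 0.19, edgeR adjusted p = 0.000896), but not in a model of surgery alone without WD (edgeR adjusted p = 0.053), and with total counts alone it was called (log2 fold change 1.11, edgeR adjusted p = 0.000444). The library kit keeps strand, but no source used here says whether the counting did, so the reads of Kcnq1 and Kcnq1ot1 cannot be told apart.

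Of the accessory subunits of these channels Kcnab1 was called lower. Its product, Kvbeta1, is an oxidoreductase-like cytoplasmic subunit that speeds the inactivation of Kv1 channels. Kcnab1 had 83 counts in WS and 127 in KS, against 28 in WD and 36 in KD, or 3.57, 4.28, 0.858 and 1.16 CPM. The denervated libraries stood well below the sham libraries in both genotypes (sham over denervated 4.17-fold, 2.69 to 6.64, and 3.67-fold, 2.52 to 5.48). The log2 fold change was -1.96 ± 0.29 (edgeR adjusted p = 1.25e-06). Kcnab2, its relative, had 7 counts in WS and 20 in KS, against 14 in WD and 8 in KD. Kcne4, a single-span subunit that inhibits Kv7 and Kv1 channels, had 28 counts in WS and 34 in KS, against 22 in WD and 37 in KD, and Kcnip3, a calcium-binding partner of Kv4 channels, had 12, 7, 8 and 10. Neither Kcnab2 nor Kcne4 was called, and Kcnip3 was not tested.

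The 3 inward rectifiers were all lower after denervation by adjusted p (27.0% of all tested genes were), and 2 of them were called (6.24%). Kcnj2, which encodes Kir2.1, the classical inward rectifier of the resting fibre, was at 82.7 CPM in WS and 93.7 in KS, against 58.5 in WD and 53.8 in KD. It was the most abundant potassium channel gene per length in both sham libraries (48.5 in WS and 53.1 in KS). Its change was short of 2-fold (log2 fold change -0.65 ± 0.08, edgeR adjusted p = 7.96e-08). Kcnj8, the Kir6.1 pore of the vascular ATP-sensitive channel, was at 26.9 CPM in WS and 23.3 in KS, against 11.0 in WD and 9.38 in KD. The fall was of like size in both genotypes (2.44-fold, 2.14 to 2.79, and 2.49-fold, 2.17 to 2.86), and the log2 fold change was -1.30 ± 0.12 (edgeR adjusted p = 1.13e-10), or -0.98 with total counts alone, which ended the call. Abcc9, the sulfonylurea receptor that pairs with Kir6 pores, was at 408 CPM in WS and 384 in KS, against 373 in WD and 371 in KD and was not called. The per-length level of Kcnj8 was 0.194 of that of Abcc9 in WS and 0.179 in KS, and 0.0868 in WD and 0.0744 in KD. Kcnj15, which encodes Kir4.2, had 39 counts in WS and 23 in KS, against 15 in WD and 10 in KD. Its denervated libraries were below its sham libraries (log2 fold change -1.60 ± 0.44, edgeR adjusted p = 0.00294). The Kcnj15 call was lost with DESeq2's Wald test (adjusted p = 0.112) and, in a model of surgery alone, without WS (log2 fold change -0.98, edgeR adjusted p = 0.176).

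Kcnj8 is known from pericytes and smooth muscle, and the markers of those cells moved with it. Of 8 listed markers 7 were in the table, and each was called lower (6.24% of all tested genes were). Their summed level was 744 CPM in WS and 684 in KS, against 307 in WD and 306 in KD. The most abundant, Rgs5, was at 545 CPM in WS and 518 in KS, against 233 in WD and 228 in KD, and the median log2 fold change of the list was -1.23, close to that of Kcnj8. All 7 listed endothelial markers were lower by adjusted p too (27.0% of all tested genes were), 3 of them called (6.24%), with a summed level of 477 CPM in WS and 385 in KS, against 224 in WD and 212 in KD and Cdh5 the most abundant. The marker lists were run under the alternatives after seeing the data. With total counts alone (2.48% of all tested genes called lower) 0 of the smooth muscle and pericyte markers and 0 of the endothelial markers were called, and 6 and 5 of the 7 were lower by adjusted p (12.8%). DESeq2's Wald test called 6 and 3 (5.39% of all tested genes), and so did a model of surgery alone (6.13%). The smooth muscle and pericyte marker without a call was Cnn1 in both. Its log2 fold change ran from -0.63 (without WD) to -1.54 (without KD) when 1 library was left out of the latter model. Without WS the 3 called endothelial markers, Cdh5, Kdr and Vwf, were short of 2-fold there (-0.97, -0.90 and -0.89). Without KS they were at -1.35, -1.25 and -1.17, and without KD Vwf was just short of 2-fold (-0.997). The part of these cells in the fall of Kcnj8 was not tested.

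The two-pore-domain potassium channels carry background current. Kcnk5 encodes TASK-2, an alkaline-activated member of this class, and it gave the highest fold change of the tested channel genes. It had 12 counts in WS and 19 in KS, against 930 in WD and 1292 in KD, or 0.517, 0.640, 28.5 and 41.8 CPM. It was thus below 1 CPM in both sham libraries and among the better expressed potassium channel genes in both denervated ones. The fold of WD over WS was 55.2 (31.4 to 107) and that of KD over KS was 65.3 (41.6 to 109). The log2 fold change was 5.92 ± 0.18 (edgeR adjusted p = 2.08e-21). With so few sham counts, the wider counting intervals show the precision of this change better than its SE does. The 4 genes of this class summed to 2.50 CPM in WS and 2.86 in KS, against 29.9 in WD and 43.1 in KD, and nearly all of the denervated sum came from Kcnk5. Kcnk6, the TWIK-2 channel, had 29 counts in WS and 52 in KS, against 28 in WD and 26 in KD, with no call (log2 fold change -0.81 ± 0.36, edgeR adjusted p = 0.0618). Kcnk3, the acid-sensitive TASK-1, had 13 counts in WS and 11 in KS, against 8 in WD and 9 in KD, with no call. Kcnk13, known from microglia, had 4, 3, 11 and 7 counts and was not tested. Macrophage and leukocyte markers were higher in denervated muscle (7 of 8 by adjusted p, against 26.6% of all tested genes, 5 of them called, against 6.84%, Lyz2 the most abundant). Their summed level was 26.9 CPM in WS and 27.1 in KS, against 62.3 in WD and 62.2 in KD. The number called was also taken in alternatives run after seeing the data. It was 8 with total counts alone (13.0% of all tested genes) and 2 with DESeq2's Wald test (5.37%). It was 3 at a mean count of at least 50 (6.25%), where 6 were tested, and 4 in a model of surgery alone (6.61%). When 1 library was left out of that model, the log2 fold change of Itgam ran from 0.24 (without KS) to 2.28 (without WS). That of Ptprc ran from 0.95 (without KS) to 1.56 (without WS). The part of macrophages and leukocytes in the Kcnk13 counts was not tested.

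Of the 5 calcium-activated potassium channel genes 4 were lower in denervated muscle by adjusted p (27.0% of all tested genes were) and 2 of those were called (6.24%). With total counts alone Kcnma1 and Kcnn4 no longer passed. The 5 genes summed to 79.8 CPM in WS and 75.9 in KS, against 48.2 in WD and 43.4 in KD. Kcnn2, the small-conductance channel SK2, was at 9.60 CPM in WS and 11.0 in KS, against 2.67 in WD and 2.23 in KD. Both denervated libraries stood well below both sham libraries (sham over denervated 3.60-fold, 2.80 to 4.67, in WT and 4.94-fold, 3.80 to 6.50, in Fgf21KO), with a log2 fold change of -2.07 ± 0.19 (edgeR adjusted p = 3.01e-10). Kcnn1, the relative SK1, was at 30.3 CPM in WS and 30.7 in KS, against 14.4 in WD and 19.0 in KD, lower by adjusted p but short of 2-fold (log2 fold change -0.87 ± 0.11, edgeR adjusted p = 7.54e-08), though called in a model of surgery alone without KD (log2 fold change -1.08). The per-length level of Kcnn1 over Kcnn2 was 2.87 in WS and 2.53 in KS, and 4.93 in WD and 7.75 in KD. Kcnn4, the intermediate-conductance channel known from red cells and lymphocytes, had 13 counts in WS and 21 in KS, against 5 in WD and 11 in KD. Its call (log2 fold change -1.32 ± 0.53, edgeR adjusted p = 0.0352) rests on few counts and was lost with total counts alone (edgeR adjusted p = 0.104) and with a model of surgery alone (0.0508). In the model of surgery alone it was lost as well without WS (edgeR adjusted p = 0.0818) and without WD (0.326), while without KD the log2 fold change was -2.03, and without KS the gene was under the count filter. Kcnma1, the large-conductance BK channel, was at 38.8 CPM in WS and 33.0 in KS, against 30.8 in WD and 21.4 in KD, lower by adjusted p alone (log2 fold change -0.48 ± 0.10, edgeR adjusted p = 0.000133). It did not pass with total counts alone (edgeR adjusted p = 0.185) or, in a model of surgery alone, without WS (0.107) or without KD (0.204). Its smooth muscle beta subunit Kcnmb1 had 14 counts in WS and 17 in KS, against 6 in WD and 15 in KD, with no call.

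Of the ClC family Clcn2, the plasma membrane chloride channel ClC-2, was at 3.44 CPM in WS and 2.49 in KS, against 3.16 in WD and 3.88 in KD. Its values showed no common direction, it was not called (log2 fold change 0.26 ± 0.25), and its annotation overlaps Fam131a and Polr2h. The 5 intracellular exchangers summed to 215 CPM in WS and 211 in KS, against 194 in WD and 200 in KD. Clcn5, the ClC-5 exchanger of early endosomes, had 64 counts in WS and 86 in KS, against 171 in WD and 213 in KD, or 2.75, 2.90, 5.24 and 6.89 CPM. It was the only gene of this class called, with both denervated libraries above both sham libraries (WD over WS 1.90-fold, 1.42 to 2.58, and KD over KS 2.38-fold, 1.84 to 3.09). The log2 fold change was 1.10 ± 0.21 (edgeR adjusted p = 7.59e-05), and in a model of surgery alone without KD it was 0.89 and short of 2-fold. Clcn4, the most abundant of the class, was at 93.6 CPM in WS and 91.0 in KS, against 84.5 in WD and 83.5 in KD, with no call, and Clcn3 was at 78.5, 77.0, 67.1 and 69.7 CPM. Clcn3 was lower by adjusted p alone (log2 fold change -0.18 ± 0.08, edgeR adjusted p = 0.0414), and with total counts alone the signs of Clcn3 (0.14) and Clcn4 (0.19, edgeR adjusted p = 0.0375) turned. Clcn3 did not pass with total counts alone (edgeR adjusted p = 0.134), DESeq2's Wald test (0.179) or a model of surgery alone (0.054), nor in the latter without WS (0.0759), WD (0.312), KS (0.0526) or KD (0.16). Clcn6, of late endosomes, was at 9.30 CPM in WS and 8.22 in KS, against 5.61 in WD and 5.50 in KD, lower by adjusted p alone (log2 fold change -0.65 ± 0.17, edgeR adjusted p = 0.00142), but not with total counts alone (0.109). Clcn7, the lysosomal exchanger, was at 31.3 CPM in WS and 32.0 in KS, against 31.6 in WD and 34.5 in KD, with no call but higher by adjusted p with total counts alone (log2 fold change 0.38, edgeR adjusted p = 0.00425), and Ostm1, its obligate beta subunit, was at 47.7, 48.6, 45.5 and 47.4 CPM with no call.

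**Figure D2:**
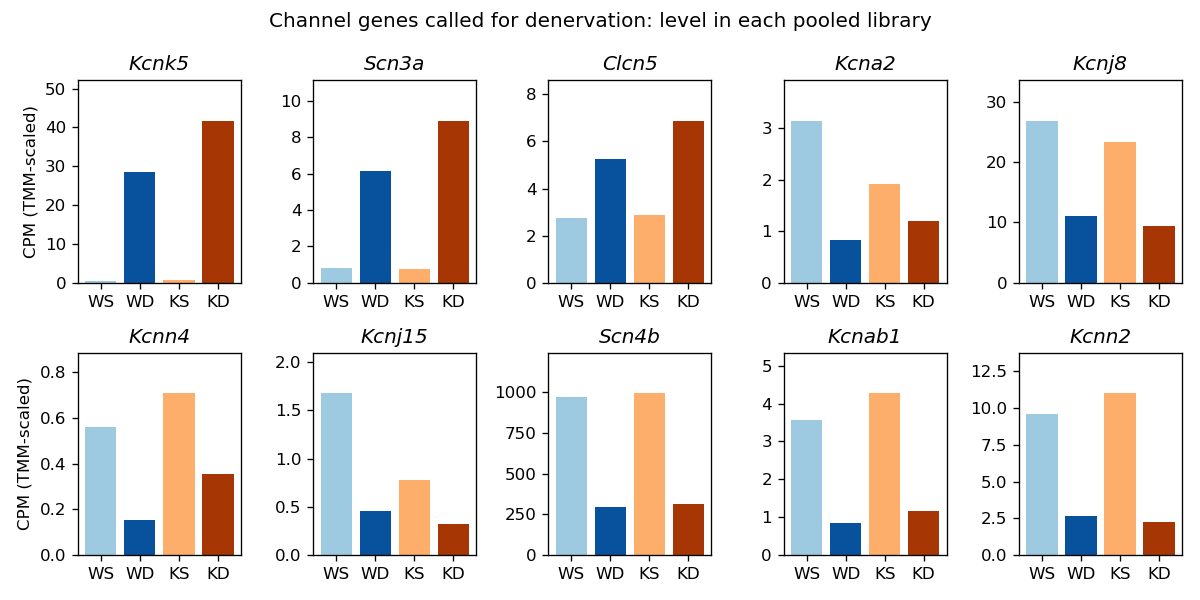
Level (y axis, CPM scaled by TMM, from 0) of the 10 channel genes called for denervation in WS, WD, KS and KD (x axis), with 1 bar per pooled library and so no error bar. Kcnk5, Scn3a and Clcn5 are higher in both denervated libraries, and the other 7 are lower in both.

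Genes that work with these channels were taken from 5 lists of 100 genes, of which 53 were in the table and all were tested. Of these 4 (7.55%, against 6.84% of all tested genes) were called higher, a share near that of all tested genes, and 8 (15.1%, against 6.24%) lower. With no fold threshold 12 were higher (26.6% of all tested genes were) and 26 lower (27.0%), and the median log2 fold change was -0.49, against 0.01 over all tested genes. The count called lower was 4 with total counts alone (2.48% of all tested genes on that scaling) and 5 with DESeq2's Wald test (5.39%). In the sodium-potassium pump list (8 of 15 in the table) 2 genes were called higher (6.84% of all tested genes were) and 0 lower (6.24%). Fxyd6, a small regulator of the pump, was at 41.6 CPM in WS and 50.3 in KS, against 124 in WD and 110 in KD, and was called higher (log2 fold change 1.35 ± 0.09). The beta subunits Atp1b1 (log2 fold change -0.97 ± 0.07) and Atp1b2 (-0.58 ± 0.07) were lower and Atp1b3 (0.78 ± 0.08) higher by adjusted p alone.

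Among sodium channel partners (12 of 20 in the table) 1 was called, Nfasc, an adhesion protein that anchors sodium channels at nodes of Ranvier, with 25 counts in WS and 16 in KS, against 4 in WD and 5 in KD (log2 fold change -2.44 ± 0.57). DESeq2 gave Nfasc no adjusted p, and without WS it was under the count filter. The spectrin Sptbn1 (-0.63 ± 0.07) was lower by adjusted p alone, and the scaffold Ank3 had no call. Among potassium channel partners (8 of 19) Amigo3 (-2.31 ± 0.23), Amigo2 (-1.06 ± 0.25) and Dlg4 (-1.03 ± 0.29) were called lower, and none passed as higher. Dlg4 had 83 counts in WS and 89 in KS, against 79 in WD and 30 in KD (sham over denervated 1.48-fold in WT and 3.09-fold in Fgf21KO). Its call was lost with total counts alone (edgeR adjusted p = 0.0623), DESeq2's Wald test (adjusted p = 0.0651), a model of surgery alone (log2 fold change -0.94), and in that model without WS (edgeR adjusted p = 0.155), KS (0.0685) or KD (0.361). The call of Amigo2 was lost with total counts alone (log2 fold change -0.74) and, in a model of surgery alone, without WS (-0.92). Amigo3, a leucine-rich repeat adhesion protein, was at 8.87 CPM in WS and 7.54 in KS, against 1.32 in WD and 2.00 in KD. Among other chloride and anion channel genes (17 of 27) Ttyh1 (2.93 ± 0.24) and Lrrc8b (2.13 ± 0.21) were called higher and Clic5 (-1.43 ± 0.07) and Ttyh2 (-1.06 ± 0.13) lower, though Ttyh2 was short of 2-fold with total counts alone (-0.74) and, in a model of surgery alone, without WS (-0.99). Lrrc8b, a subunit of the volume-regulated anion channel, was at 1.81 CPM in WS and 2.15 in KS, against 9.47 in WD and 8.08 in KD, while Lrrc8a, its obligate partner, was at 19.5, 18.3, 13.8 and 12.8 CPM and lower by adjusted p alone. Among other cation channels (8 of 19) 2 were called lower, among them Hcn2 (-1.23 ± 0.39), and none was called higher. The Hcn2 call was lost with total counts alone (edgeR adjusted p = 0.0575), DESeq2's Wald test (adjusted p = 0.153) and, in a model of surgery alone, without WS (edgeR adjusted p = 0.0985), KS (0.0622) or KD (0.227). Beside the counts of these 4 lists, 6.84% of all tested genes were called higher and 6.24% lower.

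Pairs of libraries were also set side by side, with no test and no replicate check. WD against WS had 2 channel genes at least 2-fold higher (7.18% of all tested genes were) and 10 lower (7.61%), and with total counts alone 4 and 8. KD against KS had 3 higher (7.51%) and 7 lower (6.1%), and with total counts alone 4 and 3. The percentages belong to TMM scaling and do not apply to the counts with total counts alone. That scaling raised genes in general, by 0.28 (WD over WS) and 0.35 (KD over KS) at the median. Its counts therefore have no background share beside them, and no excess over other genes is read from them. Scn3a and Kcnk5 were at least 2-fold higher in both pairs and Clcn5 in Fgf21KO, where its log2 ratio was 1.23 beside 0.91 in WT. Scn4b, Kcnab1, Kcnj15, Kcnj8 and Kcnn2 were at least 2-fold lower in both pairs. Kcna2, Kcnk3, Kcnmb1, Kcnn1 and Kcnn4 were so in WT, and Kcnab2 and Kcnk6 in Fgf21KO.

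The genotype comparison asks whether loss of Fgf21 altered these genes. In the additive model 0 of 31 channel genes were called by edgeR (0.176% of all tested genes were), and 0 by DESeq2's Wald test. At an unadjusted p below 0.05 there were 5 (7.93% of all tested genes), among them Kcnk5 and Kcnma1. By adjusted p alone 2 were lower in Fgf21KO (0.359% of all tested genes were) and 0 higher (0.313%). Kcnk5 had its highest level in KD, with a genotype log2 fold change of 0.53 ± 0.14 that did not pass (edgeR adjusted p = 0.084), and Kcnma1 (-0.38 ± 0.10, edgeR adjusted p = 0.0644) did not either. Without replicates, KS against WS had 1 gene at least 2-fold higher (0.887%), Kcnab2, and 2 lower (1.15%), among them Kcnj15. KD against WD had 1 higher (0.841%), Kcnmb1, and 0 lower (0.711%). These pairs share libraries with the denervation pairs. The median genotype log2 fold change of the channel genes was 0.01, and that of all tested genes was -0.0030.

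Promoter sequence is given for the called genes, since these are the members that moved with denervation. RefSeq promoter windows (GRCm38.p6, 250 bases before to 50 after the start) matched 23 of the 33 genes and 8 of the 10 called, with 11 windows for those 8. The E-box CANNTG, the letters bound by myogenic bHLH factors, was in 10 of these 11 windows and in 72.3% of all 32851 windows, on either strand. Its form CAGCTG, which is also a CANNTG match, was in 2 of 11 (Clcn5 and Kcna2) and in 16.3% of all. The NFAT core GGAAA was in 4 of 11 and in 61.3% of all on either strand. The MEF2-type letters TATTTATA (1.7% of all) and CTATTTATA (0.429%), the longer holding the shorter, and the AP-1 letters TGACTCA or TGAGTCA (5.2%) were in 0 of 11. A match is a description and not a site or a cause. The bases below lie upstream of the annotated starts of Kcnk5 (chr14:20181810-20182032, minus strand, 223 bases, 61.4% G or C, 1 E-box) and Clcn5 (chrX:7319359-7319608, minus strand, 250 bases, 52.4% G or C, 4 E-boxes), both higher after denervation, and of Kcnj8 (chr6:142571615-142571864, minus strand, 250 bases, 49.2% G or C, 1 E-box), which was lower. They are written 5′ to 3′ on the strand of the gene with each CANNTG in capitals.
Kcnk5: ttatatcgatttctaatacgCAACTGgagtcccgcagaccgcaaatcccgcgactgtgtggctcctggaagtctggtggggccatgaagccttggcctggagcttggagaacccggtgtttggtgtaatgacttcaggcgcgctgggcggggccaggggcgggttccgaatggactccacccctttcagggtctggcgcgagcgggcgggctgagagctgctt
Clcn5: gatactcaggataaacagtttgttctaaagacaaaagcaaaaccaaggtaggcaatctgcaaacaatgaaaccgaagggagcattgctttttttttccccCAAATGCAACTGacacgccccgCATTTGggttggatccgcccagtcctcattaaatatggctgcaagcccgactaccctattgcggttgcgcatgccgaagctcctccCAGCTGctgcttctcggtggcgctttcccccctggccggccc
Kcnj8: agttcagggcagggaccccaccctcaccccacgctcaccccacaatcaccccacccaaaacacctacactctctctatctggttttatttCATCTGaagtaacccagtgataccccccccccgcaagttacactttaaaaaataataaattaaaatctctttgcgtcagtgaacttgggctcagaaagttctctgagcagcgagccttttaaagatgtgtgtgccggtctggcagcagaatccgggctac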

How the data were processed

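Stranded poly(A) mRNA libraries were sequenced from 4 pools of TA muscle, 1 per group. The authors deposited a table of whole-number read counts per gene, not normalised, and a second table named for FPKM on a log2 scale. Each deposited log2 value of the second table equals log2(count × 1 factor per library + 1) to within 0.001%, so it holds no length correction. The submitters' processing notes name FastQC and GRCm39, and the aligner and counter are not given in the sources used here. The study's methods name edgeR with the adjusted p and 2-fold thresholds used here.

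Counts were fitted with edgeR 4.0.16 in R 4.3.3 (TMM, glmQLFit and glmQLFTest on surgery plus genotype, a mean count of at least 10, common biological coefficient of variation 0.0681), and DESeq2 1.42.0 was an alternative. The script was first tested on simulated data. The deposited log2 table was used as an alternative for pairs of libraries. Ratios of CPM had a prior count of 2. The 95% intervals (Clopper-Pearson, scipy 1.17.1) cover counting error only. Transcript lengths and coordinates came from the GRCm38 annotation, which gave a length to 13134 genes, and were not converted. Alternatives in scaling, filter, test, model, prior count, values, transcript length and libraries were run. The genes named were those called, the 3 most abundant per class, textbook channels and called partners, within the limit below. Markers of fibro-adipogenic progenitors (4 of 6 lower by adjusted p, against 27.0% of all tested genes), satellite cells (1 in the table, no call) and adipocytes (2, no call) were also listed. Some genes of the lists are not reported here by name and stay in the counts, medians and sums. The members and lists were chosen with earlier results of these data known. Each group was 1 pool of 4 muscles, so the spread between single mice was not measured. The p-values measure only the spread between these libraries. Which mice went into which pool was not used here.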

Additional observations from a re-analysis of the deposited data

Results flagged for a closer look

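In 4 of the 33 channel genes the denervated library stood on opposite sides of its sham library in WT and in Fgf21KO. This was 3 (9.68%) of the 31 tested channel genes, Kcnip3 being untested, against 2244 (17.2%) of all tested genes. With 1 library per group the difference was not tested in any of them. Kcnab2 had a log2 ratio of denervated over sham of 0.43 in WT and -1.18 in Fgf21KO, a difference of -1.61, on 7 to 20 counts per library. The counting interval of its fold reached from 0.538 to 4.17 in WT and from 0.146 to 0.910 in Fgf21KO. Kcnip3 had -0.90 in WT and 0.36 in Fgf21KO (difference 1.26), and both intervals of its fold included 1 (0.168 to 1.26 and 0.471 to 4.25). Kcne4 had -0.78 in WT and 0.06 in Fgf21KO (difference 0.84), with intervals of 0.305 to 1.01 and 0.638 to 1.72. Clcn2 had -0.12 in WT and 0.62 in Fgf21KO (difference 0.75), with intervals of 0.678 to 1.24 and 1.16 to 2.11.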

How the results depend on the processing

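Of the 10 channel genes called for denervation, Kcnk5, Scn3a, Scn4b, Kcnab1 and Kcnn2 were called under all 10 alternatives run for them. The number called higher (3) was 5 with total counts alone and 6 with no fold threshold. When 1 library was left out, Clcn5 was short of 2-fold without KD (log2 fold change 0.89). The number called lower (7) was 4 with total counts alone and 4 at a mean count of at least 50, which tests fewer genes. It was 4 with DESeq2's Wald test, where Kcnn4 had no adjusted p, and 14 with no fold threshold. Without WS, Kcna2 (log2 fold change -0.93) and Kcnj15 (-0.98) were short of 2-fold. Of all tested genes, 13.0% were called higher and 2.48% lower for denervation with total counts alone. These shares were 5.37% and 5.39% with DESeq2's Wald test and 6.25% and 5.87% at a mean count of at least 50. With no fold threshold 2 channel genes were lower in Fgf21KO instead of 0. Of the partner genes 12 instead of 4 were higher with no fold threshold, and 4 (total counts alone), 5 (DESeq2) and 26 (no fold threshold) instead of 8 were lower, or 4 to 9 when 1 library was left out. For pairs of libraries, WD against WS had 4 higher with total counts alone instead of 2, and 5 lower at a mean count of at least 50 and 6 with the second table at a pseudocount of 1 instead of 10. KD against KS had 3 lower with total counts alone, and 4 each at a mean count of at least 50, a prior count of 5 and the second table at a pseudocount of 1, instead of 7. KS against WS had 0 higher instead of 1 with total counts alone, a mean count of at least 50, a prior count of 5 and the second table at either pseudocount (1 or 0.1), and, instead of 2, 1 lower at a prior count of 5 and at a mean count of at least 50, and 0 with the second table at a pseudocount of 1. KD against WD had 0 higher instead of 1 at a mean count of at least 50, a prior count of 5 and the second table at a pseudocount of 1, and 2 at the smallest prior count. For pairs, background shares are given only for the counts that these replace, so these alternative pair counts stand without one. The denervation log2 fold change changed sign for Scn7a (0.21), Clcn3 (0.14) and Clcn4 (0.19) with total counts alone, and, leaving out 1 library, for Kcne4 (-0.35 in the additive model and 0.0284 without WD, with a range over the libraries left out of -0.79 to 0.0284) and Clcn7 (0.06 in the additive model and -0.0044 without KD, with a range of -0.0044 to 0.12). The cause was not tested beyond what the alternatives themselves change. Of the other values for the tested channel genes named here, 244 kept their direction and their call or lack of one by adjusted p and 2-fold change together. Another 11 lost that call and 3 gained it. Partner and marker genes are not in these counts. Leaving out 1 library used a model of surgery alone, in which the lone library of a surgery is assumed to vary like the others. No pairing by mouse was possible, since each group was 1 pooled library. The comparison within each genotype is already made by the additive model. Counting intervals were wide for genes near 10 counts, such as 1.22 to 13.1 for the fold of WS over WD of Kcnn4.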
